A study of Mus musculus with 8 samples.

Results

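The 36 genes described here had far more reads in NMuMG cells labelled as an RREB1 knockout than in wild-type NMuMG cells, where some had no read at all. NMuMG is a line of mouse mammary epithelial cells, and RREB1 is a zinc finger transcription factor that binds RAS-responsive DNA elements. RNA sequencing gave 8 libraries in 4 groups of 2: KO-labelled cells under TGFβ, KO-labelled cells under SB505124, WT cells under TGFβ and WT cells under SB505124. TGFβ was given at 100 pM for 1.5 h and SB505124, which inhibits the TGFβ type I receptor kinase, at 2.5 µM for 6 h, in every case after 6 h without serum. The SB505124 groups are therefore not untreated cells, and the exposures differ in length. Every KO-labelled column carries the code KO1, taken here as 1 clone, so the difference between genotypes cannot be told apart from a difference between this clone and the WT line. Nothing in the labels tells if replicates came from separate cultures, and the p-values below reflect the spread of these libraries alone, which may be technical.

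The genes were chosen by their measured values. A gene had to have a mean of at least 50 normalised reads in the KO-labelled SB505124 libraries, and its log2 ratio of KO-labelled to WT, with 1 added to each mean, had to exceed 4 under SB505124 and under TGFβ. Of 18102 genes in the deposited table, 46 met these limits. The rule left out 10 of them by symbol, among them Krt5, Ces1d and Cyp2c70, whose symbols belong to gene families that it leaves out, and Ehf and Ctnna2, which it leaves out by name. The levels and KO/WT ratios below are descriptions without a test, since they are what the rule used. The same limits with WT and KO exchanged gave 102 genes that were high in WT.

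Rreb1 itself had 2481 and 2241 normalised reads in the KO-labelled TGFβ libraries and 1327 and 1343 in the KO-labelled SB505124 libraries. WT cells had 1959 and 1769 under TGFβ and 1055 and 1033 under SB505124. The targeted transcript was thus higher, not lower, in the KO-labelled libraries under both treatments. A read count over a whole gene does not show if its product is intact, so these values do not test the label. RREB1 protein was not measured here. The libraries held 25144204 to 32143113 reads, and KO-labelled and WT libraries lay apart on the first principal component, which held 76.2% of the variance. The epithelial markers Krt8, Krt18 and Cdh1 were abundant in both lines (Cdh1 means of 24901 under TGFβ and 22692 under SB505124 in KO-labelled cells, against 13904 and 16766 in WT cells). Epcam had no read in the KO-labelled libraries and means of 30.4 and 6.06 in WT cells. Cldn7, on the same marker list, was near absent throughout. It had means of 0.513 and 1.86 in KO-labelled TGFβ and SB505124 cells and 1.62 and 2.01 in the matching WT groups. The summed luminal markers (7 of 7 in the table) ran from 30.8 to 34.9 normalised reads in the KO-labelled TGFβ libraries and from 32.0 to 37.2 in the KO-labelled SB505124 libraries, against 216 to 221 in the WT TGFβ libraries and 329 to 352.5 in the WT SB505124 libraries. Most of the WT sum was Foxa1, with means of 9.97 and 17.1 in KO-labelled TGFβ and SB505124 cells and 174 and 311 in the matching WT groups, while Csn2, Prlr and Esr1 had means below 1 in every group. Its part in the results below was not tested.

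The name "expressed only in the knockout line" holds strictly for 2 of the 36 genes, Cacng7 and Pcnxl2, which had no read in the 4 WT libraries. Another 7 genes had 1 to 3 WT reads over the 4 libraries together, 16 had 4 to 39, and 11 had 40 or more. The group means ran from 34.7 to 7992 normalised reads (median 249) in KO-labelled TGFβ cells and from 52.2 to 9051 (median 244) in KO-labelled SB505124 cells. WT means ran from 0 to 295 (median 4.17) under TGFβ and from 0 to 399 (median 4.28) under SB505124. For all 36 genes, the lowest KO-labelled library lay above the highest WT library, by 8.06-fold for Ipcef1 at the least; of all tested genes, 22.6% had every KO-labelled library above every WT library, and the rule itself used this contrast. WT means of at least 10 normalised reads were measured for 10 of the genes under TGFβ and 12 under SB505124. In bulk libraries like these, fewer cells that make a transcript and less of it per cell cannot be told apart.

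**Figure D1:**
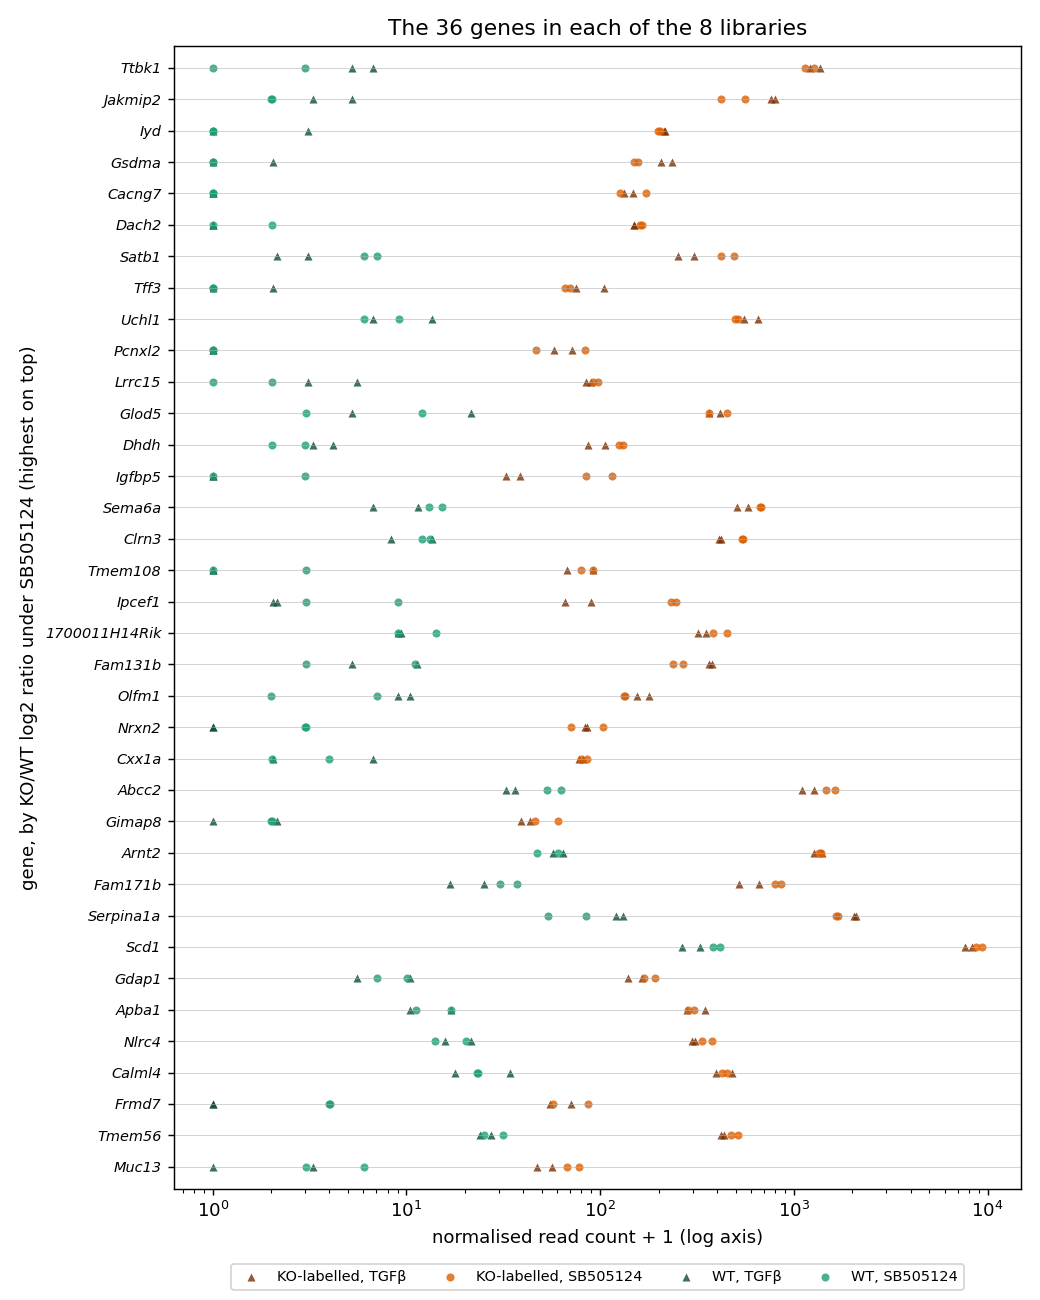
Normalised read count plus 1 (log axis) of the 36 genes in the 4 KO-labelled libraries (TGFβ as dark triangles, SB505124 as orange circles) and the 4 WT libraries (green). Every KO-labelled point of a gene lies to the right of its WT points. Cacng7 and Pcnxl2 have all 4 WT points at 1, which is a count of 0.

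The textbook roles of the genes vary. Several are typical of gut and liver epithelium, where transporters of the apical membrane, secreted trefoil peptides and mucins, and serum proteins made by hepatocytes are produced. Others are best known from neurons, where adhesion molecules, ion channel subunits and kinases act at axons and synapses. A few encode transcription regulators, proteins of inflammatory cell death, or modulators of growth factors at the cell surface. The grouping by role used below was made after the values had been seen.

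For 26 of the 36 genes (72.2%), the RefSeq table holds a promoter window, 250 bases before to 50 bases after a transcript start. That is fewer than 80% of the genes, so any comparison of base composition over the whole set is void and none is given. The windows printed here belong to the 4 genes with lower counts under TGFβ in KO-labelled cells, described further on, and to Cacng7, the more abundant of the 2 genes without WT reads. They are given on the gene's strand, with CpG dinucleotides, the sites of cytosine methylation in mammals, in capitals. No methylation was measured here. The coordinates are on GRCm38.p6, and for Ipcef1 and Satb1 the most upstream of 3 and 5 RefSeq starts was used. For Ipcef1, the GENCODE gene model begins further upstream. The windows are chr19:43782058-43782357 (plus strand) for Abcc2, chr1:72874816-72875115 (minus strand) for Igfbp5, chr10:7023136-7023435 (minus strand) for Ipcef1, chr17:51833241-51833540 (minus strand) for Satb1 and chr7:3332575-3332874 (plus strand) for Cacng7.
Abcc2: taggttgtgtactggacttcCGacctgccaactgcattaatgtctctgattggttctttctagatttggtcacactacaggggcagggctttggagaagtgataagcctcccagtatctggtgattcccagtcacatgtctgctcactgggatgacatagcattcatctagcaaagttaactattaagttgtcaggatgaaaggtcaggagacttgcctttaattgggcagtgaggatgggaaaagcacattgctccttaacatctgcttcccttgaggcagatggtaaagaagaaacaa
Igfbp5: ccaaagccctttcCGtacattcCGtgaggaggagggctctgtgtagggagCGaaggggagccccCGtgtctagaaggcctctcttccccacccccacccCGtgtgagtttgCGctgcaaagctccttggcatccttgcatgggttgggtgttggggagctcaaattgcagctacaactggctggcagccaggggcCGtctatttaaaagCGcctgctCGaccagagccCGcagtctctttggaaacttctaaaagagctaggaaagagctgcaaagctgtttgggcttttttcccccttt
Ipcef1: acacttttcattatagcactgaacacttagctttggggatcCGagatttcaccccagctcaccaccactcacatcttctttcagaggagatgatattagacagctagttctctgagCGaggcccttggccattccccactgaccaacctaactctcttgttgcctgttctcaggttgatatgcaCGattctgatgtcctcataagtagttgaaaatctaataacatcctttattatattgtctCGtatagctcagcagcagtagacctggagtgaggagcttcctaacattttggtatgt
Satb1: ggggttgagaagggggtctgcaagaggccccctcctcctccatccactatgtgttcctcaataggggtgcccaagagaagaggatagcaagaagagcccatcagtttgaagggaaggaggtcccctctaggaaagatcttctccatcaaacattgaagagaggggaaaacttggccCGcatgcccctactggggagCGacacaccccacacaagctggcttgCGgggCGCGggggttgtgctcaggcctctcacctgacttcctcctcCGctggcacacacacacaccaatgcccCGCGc
Cacng7: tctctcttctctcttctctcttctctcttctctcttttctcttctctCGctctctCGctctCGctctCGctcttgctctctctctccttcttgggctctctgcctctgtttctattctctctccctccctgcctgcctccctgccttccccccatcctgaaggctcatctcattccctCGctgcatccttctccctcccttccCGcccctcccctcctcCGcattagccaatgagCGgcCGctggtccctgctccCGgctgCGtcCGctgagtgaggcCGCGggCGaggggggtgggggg
The Abcc2 window holds 1 CpG in 300 bases with a GC content of 45%, and the Ipcef1 window holds 4. The Satb1 window holds 8 CpG and the Igfbp5 window 10. The Cacng7 window holds 15 with a GC content of 62%, and is the only one of these 5 that is CpG rich. CpG rich means a GC content of at least 50% and an observed over expected CpG ratio of at least 0.6. Of all 27025 promoter windows of the table, 34.1% are CpG rich, and of those of the other tested genes, 70.05%. On either strand, the letters CCACCC, which lie within the RREB1 element, occur in the Igfbp5 and Cacng7 windows. They occur in 30.9% of all windows and in 36.5% of those of the other tested genes. The letters TGANTCA, the element of AP-1 factors, occur in none of the 5 windows. Their shares are 7.92% of all windows and 5.08% of those of the other tested genes.

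Genes of gut and liver epithelium include the highest of the set per kb of exon. Scd1 (chr19:44394455-44407879, mm10), the desaturase that makes oleate from stearate and is strong in liver and fat, had 8309 and 7674 normalised reads in KO-labelled TGFβ cells and 9352 and 8751 in KO-labelled SB505124 cells. WT cells had 327 and 263 under TGFβ and 415 and 384 under SB505124. Scd1 was therefore well read in WT cells, and the ratio of KO-labelled to WT was 27.0 under TGFβ and 22.7 under SB505124. Its paralogs did not share this: the SB505124 mean of Scd2 was 35220 in KO-labelled and 30388 in WT cells, and that of Scd3 was 4.49 in KO-labelled and 83.1 in WT cells.

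Serpina1a (chr12:103853589-103863562) encodes an alpha-1-antitrypsin, a protease inhibitor that hepatocytes secrete. It had 2052 and 2088 normalised reads in KO-labelled TGFβ cells and 1684 and 1646 in KO-labelled SB505124 cells, against 131 and 120 in WT TGFβ cells and 52.7 and 83.1 in WT SB505124 cells. Mouse Serpina1 copies are near-identical, so the authors' counting could split or drop reads between them and the value of Serpina1a alone is uncertain. The neighbouring copy Serpina1b, which missed the limit, had SB505124 means of 3547 in KO-labelled and 249.7 in WT cells. Serpina1c and Serpina1e were also higher in KO-labelled cells, with SB505124 means of 65.3 and 44.6, against 8.04 and 3.02 in WT cells.

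Abcc2 (chr19:43782192-43840740), the apical pump that exports conjugated bilirubin and drugs from hepatocytes, had 1263 and 1096 normalised reads in KO-labelled TGFβ cells and 1629 and 1467 in KO-labelled SB505124 cells. WT cells had 31.6 and 35.4 under TGFβ and 61.8 and 52.1 under SB505124. Tff3 (chr17:31125306-31129646), a trefoil peptide that goblet cells secrete to protect mucosa, had 74.1 and 103.5 in KO-labelled TGFβ cells and 65.1 and 69.1 in KO-labelled SB505124 cells, with 1 read in all 4 WT libraries. With 0 WT reads under SB505124, the level of Tff3 there was at least 44.5-fold higher in KO-labelled cells, computed against 3 reads over the group. Muc13, a transmembrane mucin of the intestine, had 46.2 and 55.4 in KO-labelled TGFβ cells and 76.3 and 66.5 in KO-labelled SB505124 cells, with 9 reads in the 4 WT libraries. It lay just inside the limit, with a log2 ratio of 4.00 under SB505124.

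Iyd (chr10:3540240-3554877), the iodotyrosine deiodinase that recovers iodide in thyroid and is also made in liver, had 212 and 216 normalised reads in KO-labelled TGFβ cells and 197 and 202 in KO-labelled SB505124 cells. The 2 WT reads of Iyd both came from 1 WT TGFβ library. Under TGFβ the ratio was 195 with a 95% counting interval of 53.7 to 1617, and under SB505124 it was at least 132. Clrn3, a clarin family membrane protein, had 409 and 419 in KO-labelled TGFβ cells and 546 and 539.8 in KO-labelled SB505124 cells, against 7.37 and 12.6 in WT TGFβ cells and 12.2 and 11.0 in WT SB505124 cells. Calml4, a calmodulin-like light chain of the brush border, had 394 and 479 in KO-labelled TGFβ cells and 451 and 425 in KO-labelled SB505124 cells, against 16.8 and 33.1 in WT TGFβ cells and 22.30 and 22.03 in WT SB505124 cells.

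Genes best known from neurons include Ttbk1 and Jakmip2, whose WT reads were few. Ttbk1 (chr17:46442448-46487675), the tau-tubulin kinase of brain, had 1365 and 1211 normalised reads in KO-labelled TGFβ cells and 1134 and 1263 in KO-labelled SB505124 cells, against 4.21 and 5.72 in WT TGFβ cells and 0 and 2.00 in WT SB505124 cells. Its ratio was 262 under TGFβ and 1192 under SB505124, where the 2 WT reads leave a 95% counting interval of 329.6 to 9845. Jakmip2, a coiled-coil protein of the Janus kinase and microtubule interacting family, had 801 and 759 in KO-labelled TGFβ cells and 558 and 417 in KO-labelled SB505124 cells, against 4.21 and 2.29 in WT TGFβ cells and 1.01 and 1.00 in WT SB505124 cells. Its ratio was 237 under TGFβ and 482 under SB505124, where 2 WT reads give an interval of 133 to 3982.

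Uchl1 (chr5:66676091-66687234), the ubiquitin hydrolase abundant in neurons, had 552 and 649.9 normalised reads in KO-labelled TGFβ cells and 495 and 511 in KO-labelled SB505124 cells, against 12.6 and 5.72 in WT TGFβ cells and 8.11 and 5.01 in WT SB505124 cells. The antisense gene Uchl1os, whose exons overlap Uchl1, had means below 1 in each group, and reads of the 2 strands cannot be told apart in these libraries. Cacng7 (chr7:3332955-3368221), an auxiliary subunit of AMPA receptors and calcium channels, had 147 and 132 in KO-labelled TGFβ cells and 126 and 171 in KO-labelled SB505124 cells. With no WT read, it was at least 85.2-fold higher under TGFβ and at least 98.7-fold higher under SB505124. Pcnxl2 (chr8:125751508-125898317), a pecanex family membrane protein, had 56.8 and 70.7 in KO-labelled TGFβ cells and 45.6 and 82.9 in KO-labelled SB505124 cells, which is at least 38.7-fold and at least 43.0-fold higher. Its SB505124 replicates differed 1.82-fold, the widest gap between KO-labelled replicates under SB505124 among the 36 genes (median 1.09).

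The list of immunoglobulin and neural adhesion genes was made by the first letters of symbols, not by where a gene acts. With 133 genes in the table, it held 3 of the 36: Sema6a, Nrxn2 and Lrrc15. The 36 were drawn from 18102 genes, and no test was made of this count. Sema6a, a transmembrane semaphorin that guides axons, had 576 and 507.5 normalised reads in KO-labelled TGFβ cells and 666 and 678 in KO-labelled SB505124 cells, against 10.5 and 5.72 in WT TGFβ cells and 14.19 and 12.02 in WT SB505124 cells. Nrxn2, a presynaptic neurexin, had 82.8 and 84.1 in KO-labelled TGFβ cells and 69.8 and 103 in KO-labelled SB505124 cells, with 4 WT reads, all under SB505124. Lrrc15, a leucine-rich repeat membrane protein known from stromal cells, had 88.6 and 83.0 in KO-labelled TGFβ cells and 91.2 and 96.7 in KO-labelled SB505124 cells, with 7 WT reads.

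Broad neuronal markers were summed beside these genes. Snap25 had means below 1 in all 4 groups. The summed neural markers (5 of 6 listed genes in the table, mostly Map2) ran from 411 to 484 normalised reads in the KO-labelled TGFβ libraries and from 491 to 535 in the KO-labelled SB505124 libraries, whereas the WT libraries held 819.5 to 866 and 762 to 771. The part of such cells in these results was not tested. None of the 36 belonged to the luminal, basal, fibroblast, leukocyte, endothelial, adipocyte, skeletal muscle, germ cell or neural marker lists. Krt5, a basal keratin, met the limits and was left out by symbol. Its means were 70.5 in KO-labelled TGFβ cells and 69.4 in KO-labelled SB505124 cells, against 2.77 and 0.507 in WT cells, and of the other basal markers, Trp63 and Oxtr had means below 4 in every group. Krt14 had no read in KO-labelled cells and means of 42.0 and 4.54 in WT TGFβ and SB505124 cells. Acta2 had means of 7.05 and 5.42 in KO-labelled TGFβ and SB505124 cells and 7.16 and 9.54 in the matching WT groups. Mylk, also on the basal list, had means of 1933 and 2257 in KO-labelled cells, against 497 and 784 in WT cells. The lists of ion channels (187 genes in the table) and secreted factors (212) held 1 each, Cacng7 and Igfbp5. The lists of germline, imprinted, homeobox, zinc finger, cadherin, G protein coupled receptor and interferon induced genes held none.

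Among the transcription regulators, Arnt2 (chr7:84246278-84410176), a bHLH-PAS partner of SIM1 and NPAS4 in brain, had 1394 and 1271 normalised reads in KO-labelled TGFβ cells and 1384 and 1342 in KO-labelled SB505124 cells, against 63.2 and 56.0 in WT TGFβ cells and 59.8 and 46.1 in WT SB505124 cells. Its paralog Arnt had SB505124 means of 1378 in KO-labelled and 1323 in WT cells. Dach2 (chrX:113297510-113836386), a dachshund family co-repressor, had 148 and 148 in KO-labelled TGFβ cells and 160 and 163 in KO-labelled SB505124 cells, with a single read in the 4 WT libraries. Dach1 ran the other way, with SB505124 means of 7.24 in KO-labelled and 29.7 in WT cells. Satb1, a chromatin organiser first known from thymocytes, had 14 WT reads in all and is described with the TGFβ response.

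Genes of innate immunity and cell death were Gsdma, Nlrc4 and Gimap8. Gsdma (chr11:98664351-98677708), a pore-forming gasdermin of skin and upper gut, had 206 and 235 normalised reads in KO-labelled TGFβ cells and 155 and 148 in KO-labelled SB505124 cells, with 1 read in the 4 WT libraries. Nlrc4, an inflammasome protein activated when cells sense bacterial flagellin, had 295 and 306 in KO-labelled TGFβ cells and 378 and 334 in KO-labelled SB505124 cells, against 14.7 and 20.6 in WT TGFβ cells and 19.3 and 13.0 in WT SB505124 cells. Gimap8, a GTPase of lymphocytes, was the lowest by the KO-labelled SB505124 mean (52.2), with 3 WT reads. The leukocyte marker Ptprc had means of 7.83 and 10.7 in KO-labelled TGFβ and SB505124 cells and 3.96 and 9.06 in the matching WT groups. The summed leukocyte markers (5 of 5 in the table, mostly Lyz2 and Cd68) ran from 571 to 687 and 581 to 643 in KO-labelled TGFβ and SB505124 libraries, and from 496 to 519 and 472 to 521 in the WT libraries, and their part in the result was not tested.

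Others of the set have more varied or less settled roles. Glod5, a glyoxalase domain protein, had 365 and 413 normalised reads in KO-labelled TGFβ cells and 449 and 363 in KO-labelled SB505124 cells, against 4.21 and 20.6 in WT TGFβ cells and 2.03 and 11.0 in WT SB505124 cells. Its WT replicates differed widely, the second being the higher under both treatments. Cxx1a (Rtl8a in GENCODE), derived from a retrotransposon Gag gene, had KO-labelled means of 79.0 under TGFβ and 81.4 under SB505124, against 3.38 and 2.01 in WT cells. Its neighbour Cxx1b is a close copy with SB505124 means of 145 in KO-labelled and 21.1 in WT cells, so reads could be split between them. The remaining genes, Apba1, Dhdh, Fam131b, Fam171b, Frmd7, Gdap1, Olfm1, Tmem108, Tmem56 and 1700011H14Rik, had KO-labelled SB505124 means of 70.9 (Frmd7) to 828 (Fam171b). For 13 of the 36 genes, exons overlap those of a gene on the other strand. In 3 cases that gene is in the table, Tulp2, Clcn1 and Uchl1os, and the highest of them, Clcn1 beside Fam131b, had SB505124 means of 13.0 in KO-labelled and 9.07 in WT cells.

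Some of the genes nearest to a limit lay close to it, and others lay further off. By KO-labelled SB505124 mean, Gimap8, Pcnxl2 and Tff3 were inside at 52.2, 64.3 and 67.1, and Prom2, Tmigd1 and C1ql3 outside at 47.7, 33.4 and 31.4. By log2 ratio under SB505124, Muc13, Tmem56 and Frmd7 were inside at 4.00, 4.13 and 4.16, and Zfp521, Gm10768 and Pcdhac2 outside at 3.97, 3.91 and 3.56. By log2 ratio under TGFβ, Nlrc4, Serpina1a and Tmem56 were inside at 4.02, 4.04 and 4.06, and Hoxb6 and Gm2115 outside at 3.56 and 3.45.

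Divided by exon length, most of the genes were read at modest levels even in KO-labelled cells. In the KO-labelled SB505124 libraries the 36 genes ran from 6.25 to 1850 normalised reads per kb of exon, with a median of 61.0, while the median of all tested genes with a length was 189.9. The 4 genes above that median were Scd1 at 1850, Serpina1a at 909, Glod5 at 603.5 and Uchl1 at 308 normalised reads per kb. Next came Abcc2, Arnt2 and Clrn3 at 181, 177 and 164, then Fam171b, Tff3, Iyd, Calml4 and 1700011H14Rik at 144 to 106. The lowest were Nrxn2 at 6.25, Pcnxl2 at 6.71 and Tmem108 at 8.503. The floor of 50 normalised reads acts on totals, so long genes entered at lower levels per kb.

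**Figure D2:**
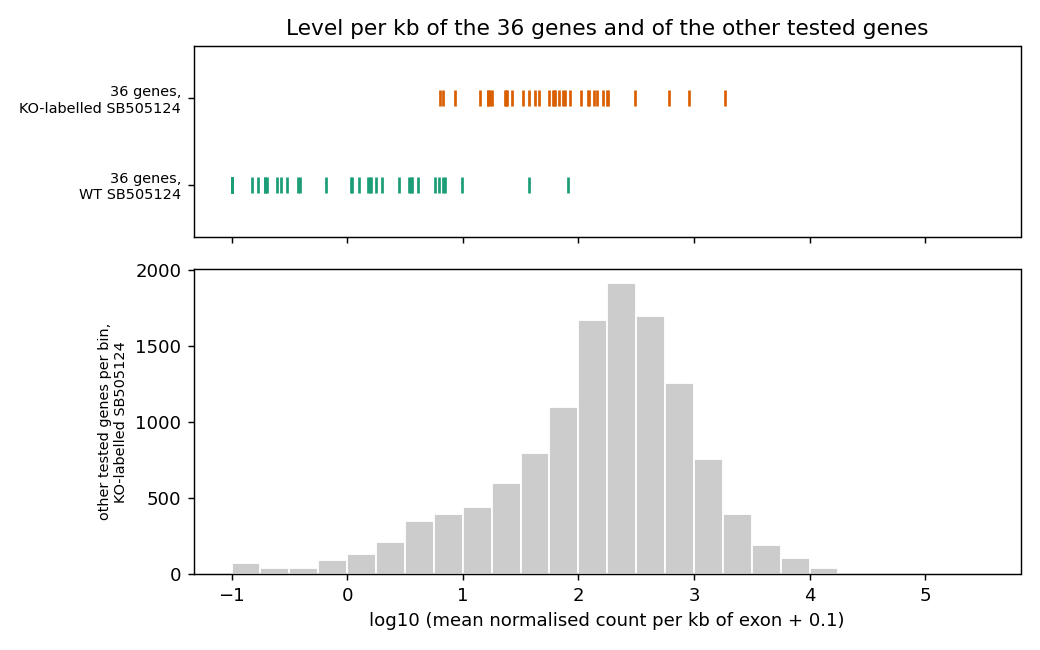
Level per kb of exon, as log10 of the mean normalised count plus 0.1. Ticks in the upper panel mark the 36 genes in KO-labelled SB505124 cells and in WT SB505124 cells, and the lower panel is a histogram of the other tested genes in KO-labelled SB505124 cells. The median of the 36 genes in KO-labelled cells, 61.0 per kb, lies below the 189.9 of all tested genes.

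Whether TGFβ moved these genes in KO-labelled cells was tested with limma across 12498 genes, comparing TGFβ with SB505124 in KO-labelled libraries. The rule did not use this contrast, although its floor on the SB505124 mean and its ratio under TGFβ bear on genes near the limits. None of the 36 genes was called higher and 4 were called lower at a Benjamini-Hochberg adjusted p below 0.05, namely Ipcef1, Igfbp5, Satb1 and Abcc2. Of all tested genes, 30.9% were called, 15.1% as higher and 15.8% as lower. The 4 genes are 11.1% of the 36, near the share of all genes called as lower. At an unadjusted limma p below 0.05, 2 genes were higher (Jakmip2, Serpina1a) and 5 were lower, Fam171b being the fifth. In WT cells the log2 changes of Ipcef1, Igfbp5, Satb1 and Abcc2 were negative too, at -1.32, -0.79, -1.34 and -0.75. They rest on 12, 2, 14 and 174 reads in the 4 WT libraries.

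Other fits gave other counts. The limma SE of the 36 genes had a median of 0.381, against 0.0993 over all tested genes. In this model the near-zero WT values and the KO-labelled values of a gene share 1 estimate of the spread. edgeR on the recovered reads called 4 of the 36 as higher (Fam131b, Gsdma, Jakmip2, Serpina1a) and 7 as lower (Abcc2, Clrn3, Fam171b, Igfbp5, Ipcef1, Satb1, Sema6a), that is 30.6% of them. Its background was 32.2% of all genes, 16.2% as higher and 16% as lower. DESeq2 called 3 as higher and 6 as lower, or 25% of the 36, beside a background of 28% (13.9% higher, 14.1% lower). limma on the 4 KO-labelled libraries alone called 4 as higher and 6 as lower, or 27.8%, beside 24.3% of all genes (12.4% higher, 11.9% lower). By these 3 fits the share of the 36 genes that responded was close to that of all genes.

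Ipcef1 (chr10:6885796-7052478), which binds the ARF6 exchange factor cytohesin, had 88.6 and 64.6 normalised reads in KO-labelled TGFβ cells, against 245 and 231 in KO-labelled SB505124 cells. Both TGFβ libraries lay far below both SB505124 libraries. The log2 change was -1.64 ± 0.41 (SE, n = 2 libraries a group), a level 0.321 times that under SB505124, with a limma adjusted p of 0.00518. Its exons overlap those of Oprm1 on the other strand. The call was lost without the second KO-labelled TGFβ library (limma adjusted p = 0.0745) and held in the other 17 alternatives.

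Igfbp5 (chr1:72857932-72874884), a secreted binding protein that modulates insulin-like growth factors and rises in mammary involution, had 37.5 and 31.8 normalised reads in KO-labelled TGFβ cells, against 113.5 and 83.8 in KO-labelled SB505124 cells. The groups did not overlap, and the log2 change was -1.47 ± 0.54, with a limma adjusted p of 0.0461. WT cells had 2 reads in all, both in 1 SB505124 library. Within the family, Igfbp4 was lower in KO-labelled than in WT cells, with SB505124 means of 111 and 1879. Satb1 (chr17:51736187-51833290) had 303 and 251 in KO-labelled TGFβ cells, against 492 and 419 in KO-labelled SB505124 cells. Its log2 change was -0.72 ± 0.27, with a limma adjusted p of 0.0488. The limma calls of Igfbp5 and Satb1 were lost in 9 of 17 and 8 of 18 alternatives, with adjusted p of up to 0.33 and 0.348, and were made by edgeR and DESeq2.

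Abcc2, whose counts are given above, had both KO-labelled TGFβ libraries below both KO-labelled SB505124 libraries. Its log2 change was -0.39 ± 0.14, a level 0.761 times that under SB505124, with a limma adjusted p of 0.0345. The call was lost in 4 of 18 alternatives, with a highest limma adjusted p of 0.292 without the second KO-labelled TGFβ library. Fam171b had 661 and 519 normalised reads in KO-labelled TGFβ cells, against 855 and 801 in KO-labelled SB505124 cells, and a log2 change of -0.50 ± 0.19 that missed the threshold (limma adjusted p = 0.0548).

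The largest positive change among the 36 was that of Jakmip2, whose TGFβ libraries both lay above its SB505124 libraries in KO-labelled cells. The log2 change was 0.69 ± 0.27, with a 95% interval of 0.13 to 1.25 and a limma adjusted p of 0.0563, which misses the threshold. Fam131b had 376 and 363 normalised reads in KO-labelled TGFβ cells, against 265 and 237 in KO-labelled SB505124 cells. The log2 difference of Serpina1a was 0.31 ± 0.15 (limma adjusted p = 0.121), that of Fam131b 0.56 ± 0.42 (0.348) and that of Gsdma 0.53 ± 0.41 (0.347), and none of them passed. The difference for Scd1 was -0.18 ± 0.10 (limma adjusted p = 0.175). For Arnt2 it was -0.03, with a 95% interval of -0.32 to 0.25, and no difference was detected.

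Of the 36 genes, 11 had a positive and 25 a negative log2 change, with a median of -0.12, beside -0.02 over all tested genes. The median size of the change without its sign was 0.25, beside 0.20 over all tested genes. For 8 of the genes (22.2%) both KO-labelled TGFβ libraries lay above both KO-labelled SB505124 libraries, and for 17 (47.2%) both lay below. Over all tested genes these shares were 31.2% and 35.9%.

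**Figure D3:**
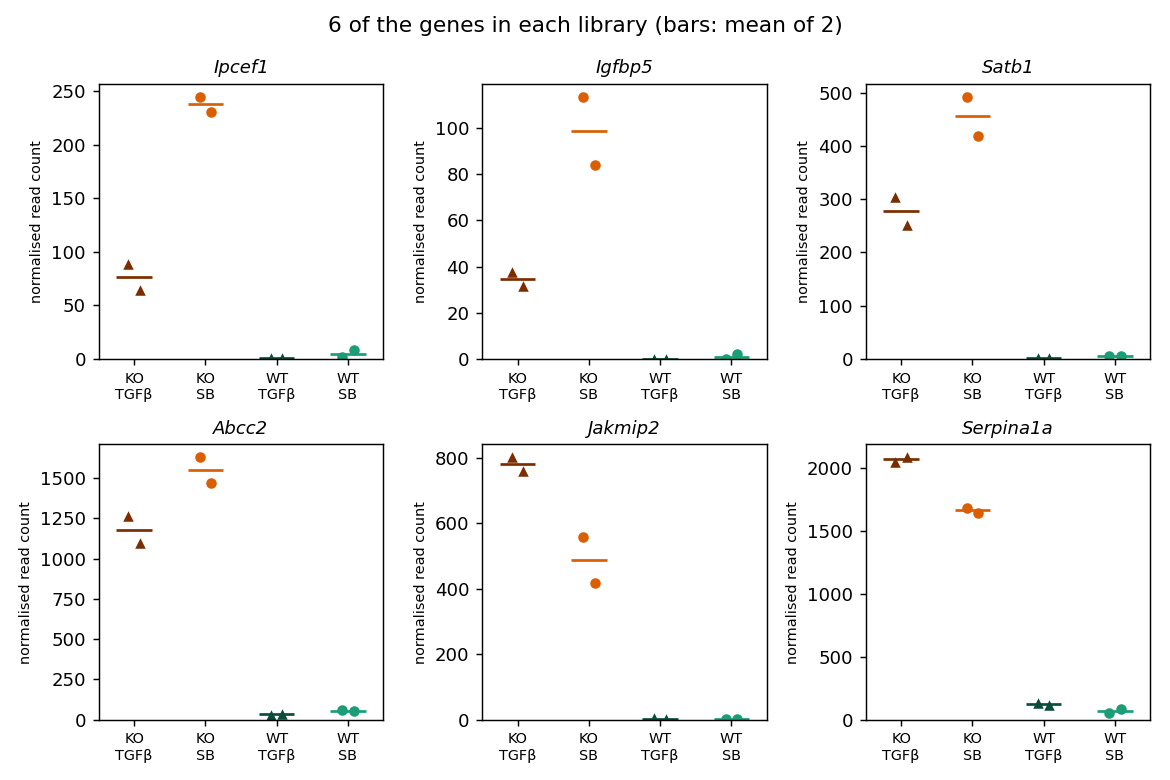
Normalised read counts of 6 genes in each library, with the mean of 2 libraries as a bar. Ipcef1, Igfbp5, Satb1 and Abcc2 were called lower under TGFβ than under SB505124 in KO-labelled cells, and Jakmip2 and Serpina1a, which were higher at an unadjusted limma p below 0.05, were not called. WT libraries are near 0 on these linear axes, Serpina1a and Abcc2 being the highest of them.

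**Figure D4:**
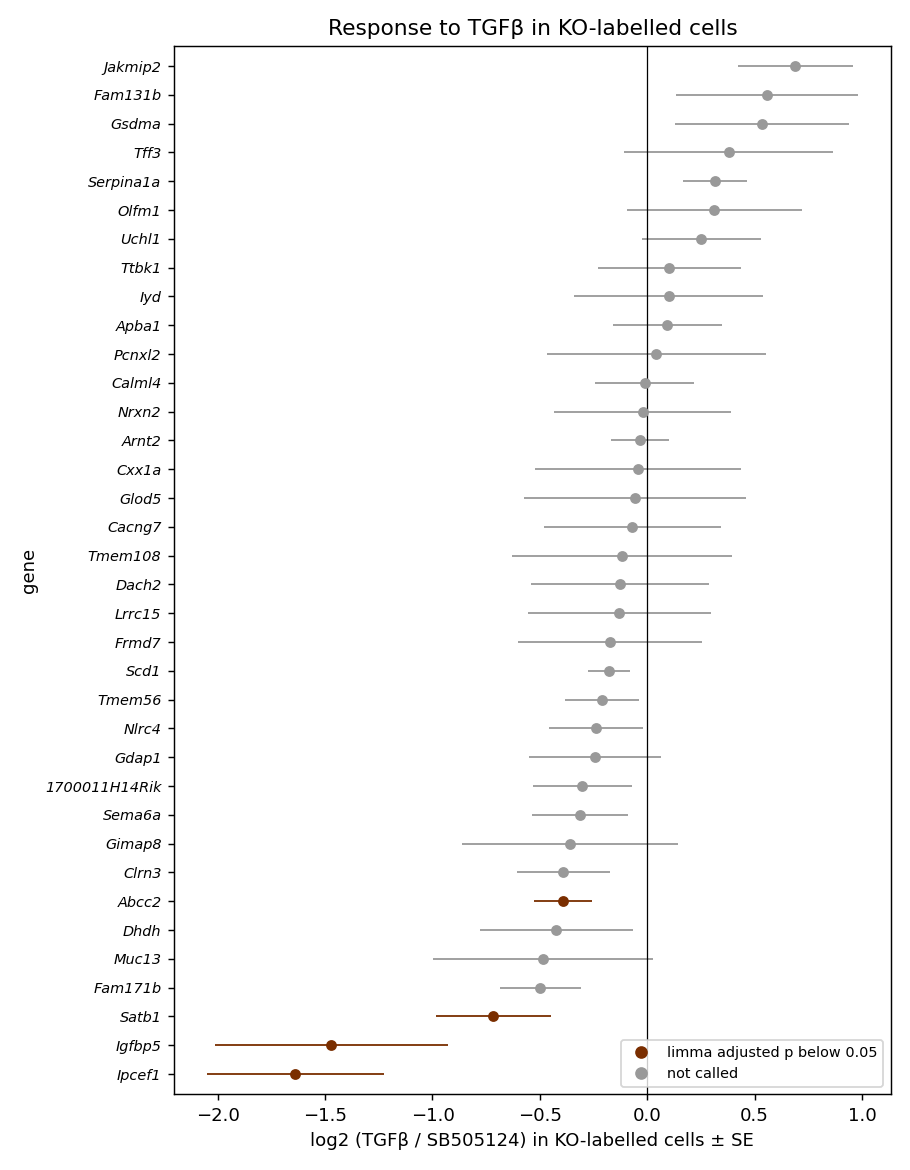
log2 change under TGFβ relative to SB505124 in KO-labelled cells for each of the 36 genes, with the limma SE as a line. The 4 dark points are the genes called at an adjusted p below 0.05, from -1.64 for Ipcef1 to -0.39 for Abcc2. The other 32 lie between -0.50 and 0.69.

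The genes were spread over the genome. All 36 are protein coding and were placed on GENCODE M21 (mm10). Chromosomes 7, 17, 19 and X carried 4 each, and chromosomes 4, 13, 15 and Y none. Each of chromosomes 7, 17, 19 and X thus held 11.1% of the 36 genes. Their shares of the genes of the table were 7.87%, 4.98%, 3.55% and 3.30%. The only pair within 1 Mb of each other was Abcc2 and Scd1 on chromosome 19, on opposite strands with 553715 bases between them.

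Their neighbours did not share the difference as a group. The 571 tested genes within 1 Mb of one of the 36 had a median log2 difference of KO-labelled minus WT of -0.0026 under SB505124, and the 11750 other tested genes had 0.0079. Of the neighbours, 7.71% were higher by more than 1 on the log2 scale, beside 6.31% of the other genes. Among the nearest tested gene of each of the 36, 2 exceeded 1, and both are paralogs of the gene they neighbour. They were Serpina1b at 3.82 and Cxx1b at 2.72. Some genes within 1 Mb that were not the nearest also had large differences. Examples are Gm2115 by Arnt2 at 6.15, Tmem169 by Igfbp5 at 3.37 and Ppp2r2b by Jakmip2 at 3.18. Cpn1, by Abcc2 and Scd1, had 4.335. Of the 571 neighbours, 44 were higher and 40 lower by more than 1.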

How the data were processed

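Each value in the file the authors deposited is a signal, namely the number of reads of a gene in 1 library over that library's size factor. The submitters' processing notes name HTSeq 0.6.1p1 and DESeq2 3.4, with FastQC 0.11.5 for quality, on mm10; the aligner is not given in the sources used here. Per the labels, TruSeq RNA v2 libraries were made, which do not mark strand. All values were whole multiples of 1 step per library (100% within 0.01 reads), which gave back reads and size factors of 0.875 to 1.16. Symbols that had become dates (26) and rows that shared a name (4) are not named.

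Genes with a mean of at least 10 over the 8 libraries (12498) were tested on log2(normalised count + 1), which understates changes of low genes. limma 3.58.1 (R 4.3.3) with a variance trend was fitted to the 4 group means of all libraries, with 4 residual and 14.3 prior degrees of freedom. P-values were Benjamini-Hochberg adjusted over all tested genes, at 0.05. All 36 genes passed the filter, mostly through their KO-labelled values. edgeR 4.0.16 and DESeq2 1.42.0 were run on the recovered reads as alternatives. KO/WT ratios come from normalised reads. Where a WT group had 1 to 3 reads a 95% exact counting interval was computed, given here for those ratios that the text discusses, and where it had none the bound uses 3 reads over the group. Both cover counting error only. Replicates differed by more than counting noise in every group (chi-square per gene of 6.06 to 15.3).

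The 36 genes, the lists and the tests were chosen with earlier results of these data known. The named genes are the 12 highest per kb, those called, those without WT reads, those near another of the set, those in a list, and those at the limits. Others were named by role after their values were seen. Some genes that this rule would name are not reported here. Exon lengths and gene coordinates are from GENCODE M21, promoter windows from RefSeq (GRCm38.p6).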

Additional observations from a re-analysis of the deposited data

How the results depend on the processing

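The 36 genes became 67 with a log2 ratio above 3 and 17 with one above 5, and stayed between 26 and 40 under the other limits, pseudocount and scaling tried. Leaving out 1 library gave 31 to 36, the fewest without WT TGFβ replicate 1. The count of 0 genes called higher under TGFβ in KO-labelled cells became 1 with a pseudocount of 8, 4 by edgeR, 3 by DESeq2 and 4 in a fit of the 4 KO-labelled libraries, and ran from 0 to 2 with 1 library left out. The count of 4 called lower became 2 with a pseudocount of 0.5, 1 with no filter on low values, 2 with a mean of at least 50, 2 with TMM scaling, 2 without the variance trend and 7 by edgeR. Leaving out 1 library gave 0 to 5, with 0 without KO-labelled TGFβ replicate 2 and 1 without KO-labelled SB505124 replicate 1. The cause of these changes was not tested. Over all genes the 3864 calls ran from 2320 (without KO-labelled TGFβ replicate 2) to 4410 with 1 library left out, with 2332 without KO-labelled SB505124 replicate 1.

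The labels do not say that replicate numbers pair the samples, and same-numbered libraries had deviations that correlated at 0.102 in KO-labelled and 0.198 in WT cells. With the replicate number as a block, 3 genes were called lower, Igfbp5 being lost (limma adjusted p = 0.0671), and 3658 genes were called in all. TMM scaling shifted the median response by 0.0186 and changed the sign of 1 gene, Calml4, which was not called. With 2 libraries a group, changes of genes with few reads are poorly resolved, and every KO/WT ratio above 100 rests on fewer than 10 WT reads in its group.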

Other observations

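Known regulators and products of gut and liver epithelium outside the 36 genes were looked up after the 36 had been seen, with no test. Over all tested genes on chromosomes outside the 36, 6.37% were more than 2-fold higher in KO-labelled than in WT cells under SB505124 and 8.47% more than 2-fold lower. Of 14 regulators tested, 6 were more than 2-fold higher in KO-labelled cells and 1 was as much lower, with a median log2 difference of 0.52, beside 0.0074 over all those genes. Hnf4a, a nuclear receptor of hepatocytes and enterocytes, had SB505124 means of 12033 in KO-labelled and 4673 in WT cells, and Cdx2, the intestinal homeobox factor, had 640.5 and 163. Foxa1, a forkhead factor, ran the other way at 17.1 in KO-labelled and 311 in WT cells.

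Of 12 products tested, 6 were more than 2-fold higher in KO-labelled cells and 2 lower, with a median of 1.09. Vil1, which bundles actin in microvilli, had SB505124 means of 9560 in KO-labelled cells and 865 in WT cells, and the galectin Lgals4 had 337 and 33.8. Trf (transferrin) had 29.9 in KO-labelled and 843 in WT cells, and Alb (albumin) 3.19 and 37.8. Of 5 neuronal products tested, none was 2-fold higher and 2 were lower, with a median of -0.05.

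The 10 genes that met the limits and were left out by symbol include Ces1d, a liver carboxylesterase with 233 and 222 normalised reads in KO-labelled TGFβ cells and 280.1 and 294 in KO-labelled SB505124 cells, and no WT read. Ehf, an epithelial ETS factor, had 3088 and 2892 in KO-labelled TGFβ cells and 1553 and 1385 in KO-labelled SB505124 cells, against 139 and 169 in WT TGFβ cells and 46.6 and 42.1 in WT SB505124 cells. Cpn1, a carboxypeptidase subunit made by liver and encoded within 1 Mb of both Abcc2 and Scd1, had SB505124 means of 161.9 in KO-labelled and 7.07 in WT cells.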
